A study of Rattus norvegicus with 15 samples.

Results

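The enzymes that make glutathione, attach it to foreign compounds, spend it on peroxides or run the parallel thioredoxin system were followed in the livers of high-fat-fed rats given PF-04923503, an inhibitor of acetyl-CoA carboxylase (ACC). The set was chosen by gene symbol. It took every gene named by a single symbol on the array that began with Gsta, Gstk, Gstm, Gsto, Gstp, Gstt, Gstz, Mgst, Gpx, Prdx or Txnrd, and 16 further genes listed by name. This gave 54 genes of the 14217 named on the array. Of these, 45 passed a filter on dim values and were tested, among 9540 tested genes in all.

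Liver RNA from male Sprague Dawley rats of Charles River was measured on 15 Affymetrix arrays. The rats were 7 weeks old at the start and ate a diet with 59% of its calories from fat. They received a daily gavage for 6 weeks, in 3 groups with 5 samples each: the vehicle, which was 0.5% methylcellulose, PF-04923503 at 10 mg/kg, or PF-04923503 at 30 mg/kg. The diet was common to all groups and no group on ordinary chow was measured, so the comparisons are among animals on this diet. The labels number the samples within a group without saying that each is a different rat, and p-values therefore measure the spread between these samples.

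Glutathione is a tripeptide made in the liver from glutamate, cysteine and glycine, and the liver exports it to other organs. Glutathione transferases couple it to electrophiles and drugs, and glutathione peroxidases use it to reduce hydrogen peroxide and lipid peroxides. Peroxiredoxins do similar work, most of them with electrons from thioredoxin. Many of these genes are switched on by NRF2 (Nfe2l2), a transcription factor that KEAP1 marks for degradation until oxidants or electrophiles modify KEAP1, and which then binds antioxidant response elements near its targets.

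The core letters of that element, TGACNNNGC, were searched on both strands of RefSeq promoter windows (GRCr8), which run from 250 bases before to 50 bases after a gene's start. Where its free positions are TCA, the core holds the whole AP-1 motif TGACTCA, as in the match of Gstp1, so the 2 motifs can overlap. A window was held for 46 of the 54 genes, and 12 of the 46 (26.1%) carried the letters, against 3602 of 27457 genes with a window (13.1%). A gene with several starts had several windows, and it counted when any of them held the letters. The 12 were Gclm, Gpx2, Gsta1, Gsta3, Gstm5, Gstm7, Gstp1, Gstz1, Prdx4, Prdx5, Sod2 and Txnrd1. A match is a run of letters, and binding there was not measured. The windows of Gpx4, Nqo1, Osgin1 and Srxn1 held no match, which says only that these letters are not in those windows. Of the genes with a match, 9 were tested. Set against vehicle, their median log2 differences were -0.06 for the lower dose and -0.02 for the higher, and those of the 29 tested genes with a window and no match were -0.02 and 0.01. Stretches of 4 genes follow, 2 transferases, a subunit of the glutathione-making ligase and a thioredoxin reductase, to show the element in its setting, with the match in capitals and each stretch read 5′ to 3′ along the gene's own strand. They are Gsta1 at chr9:31216484-31216513 (minus strand, downstream of the start), Gstm7 at chr2:198260320-198260569 (minus strand), Gclm at chr2:213031885-213032134 (plus strand) and Txnrd1 at chr7:22755905-22756154 (minus strand), the last 3 ending at the base before the start. In Gclm and Txnrd1 the core reads on the opposite strand. Txnrd1 has another start, with chr7:22764852-22765101 before it, whose window held no match.
Gsta1: caactcaggcaTGACTTTGCatttttcttc
Gstm7: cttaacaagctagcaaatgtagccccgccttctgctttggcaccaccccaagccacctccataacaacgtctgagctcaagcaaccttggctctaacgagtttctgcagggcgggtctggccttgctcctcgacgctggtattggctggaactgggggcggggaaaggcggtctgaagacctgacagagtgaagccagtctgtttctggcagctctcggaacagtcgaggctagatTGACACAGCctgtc
Gclm: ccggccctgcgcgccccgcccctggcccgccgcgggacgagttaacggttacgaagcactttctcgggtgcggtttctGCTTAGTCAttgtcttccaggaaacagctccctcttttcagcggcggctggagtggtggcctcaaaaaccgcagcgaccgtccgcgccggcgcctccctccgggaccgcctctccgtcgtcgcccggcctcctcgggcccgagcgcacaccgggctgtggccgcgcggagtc
Txnrd1: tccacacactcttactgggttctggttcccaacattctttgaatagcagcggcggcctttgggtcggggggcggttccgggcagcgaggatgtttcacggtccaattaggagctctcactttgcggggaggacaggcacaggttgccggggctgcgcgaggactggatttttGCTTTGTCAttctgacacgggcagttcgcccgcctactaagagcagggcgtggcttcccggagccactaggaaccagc

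The mean level of the 8 tested of 9 hepatocyte markers lay between 13.84 and 14.03 on the log2 scale in all samples. No other tissue was measured to set beside it, so the tissue label was not tested. Levels of different genes are not compared here, because a probe set's brightness also depends on its probes. In whole liver, fewer cells of a type and less RNA per cell cannot be told apart. Across all tested genes, limma with Benjamini-Hochberg adjustment called 10 genes between 10 mg/kg and vehicle (6 higher, 4 lower), 0 between 30 mg/kg and vehicle (1535 at an unadjusted p under 0.05), and 0 between the doses (555 at an unadjusted p under 0.05).

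No gene of the set was called at either dose. At 10 mg/kg, 0 of 45 had an adjusted p under 0.05 by limma, where 0.105% of all tested genes did. By the unadjusted p under 0.05, the set held 8 of 45 (17.8%), beside 13.3% of all tested genes. Of these 8, 1 was higher (4.49% of all genes) and 7 were lower (8.79%). At 30 mg/kg there were 0 called of 45 (0% of all tested genes), and 7 of 45 (15.6%) had an unadjusted p under 0.05, beside 16.1%. Of these 7, 2 were higher (5.27% of all genes) and 5 were lower (10.8%). A mean difference of at least 1.25-fold was seen in 4 of 45 genes (8.89%) at the lower dose and 3 of 45 (6.67%) at the higher, beside 4.81% and 4.19% of all genes. The mean was lower than vehicle in 29 of 45 genes (64.4%) at 10 mg/kg and in 23 of 45 (51.1%) at 30 mg/kg, where 58.2% and 62% of all genes were lower. After quantile normalization these counts were 24 and 20, and after centring on the array median 29 and 27. The matching shares of all genes were not computed. Over the 45 genes the median log2 difference came to -0.020 for the lower dose and -0.0028 for the higher, and over all genes to -0.020 and -0.032. With quantile normalization these medians were -0.0057 and 0.027 over the 45 genes, and -0.0064 and 0.0029 over all genes. With centring on the array median they were -0.021 and -0.017 over the 45 genes, and -0.021 and -0.046 over all genes. Both doses were set against the same vehicle samples, so their values are given side by side and not as repeats of each other.

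The data bound most of these differences. The 95% confidence interval of the fold change lay within 1.5-fold either way for 37 of 45 genes at 10 mg/kg and for 39 of 45 at 30 mg/kg, and within 2-fold for 41 and 43. The 8 genes whose interval reached 1.5-fold at 10 mg/kg were Akr7a3, Gstk1, Gstm2, Gstm3, Gstm7, Gstt3, Nqo1 and Osgin1. At 30 mg/kg they were Akr7a3, Gstm3, Gstm7, Gstp3, Gstt3 and Srxn1.

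**Figure D1:**
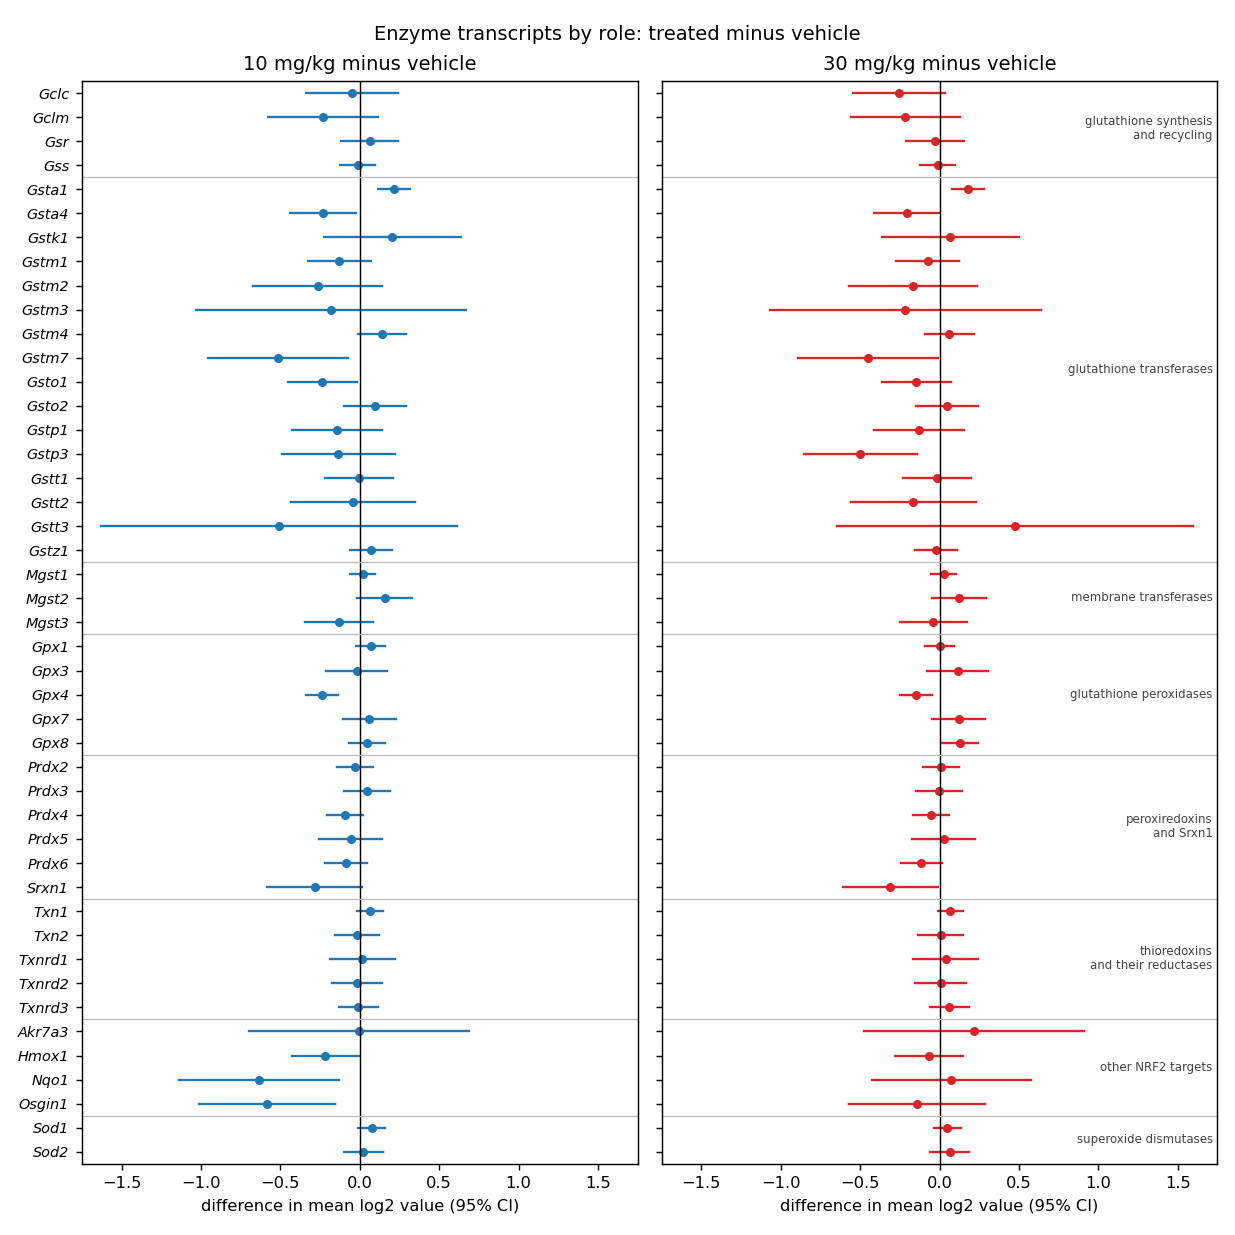
Log2 difference from vehicle of each of the 45 tested genes at 10 and at 30 mg/kg, with points for the fitted difference and bars for its 95% confidence interval. Most intervals cross 0. At both doses the intervals of Gpx4, Gsta4 and Gstm7 lie below 0, that of Gsta4 at 30 mg/kg barely so, and that of Gsta1 above 0. The widest bars belong to Gstt3 and Gstm3.

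The first step of glutathione synthesis, the rate-limiting one, is run by glutamate-cysteine ligase, with Gclc as its catalytic and Gclm as its modifier subunit. Gss, glutathione synthetase, adds glycine, and Gsr, glutathione reductase, returns oxidised glutathione to its reduced form. All 4 were tested and 0 passed, at an adjusted p or at an unadjusted p under 0.05. Gclc stood at 0.966-fold the vehicle level at 10 mg/kg and 0.838-fold at 30 mg/kg (95% CI 0.685 to 1.02). Its log2 values were 10.26, 10.45, 9.98, 9.94 and 10.54 with vehicle, 10.32, 9.83, 9.97, 10.38 and 10.42 at 10 mg/kg, and 10.03, 9.82, 10.06, 10.14 and 9.85 at 30 mg/kg. The groups overlapped, although no 30 mg/kg sample exceeded 10.14. Its other probe set gave a log2 difference of -0.23 at 30 mg/kg. Gclm stood at 0.852-fold and 0.862-fold, and without vehicle sample 1, at 11.07 the highest of all, its log2 difference moved from -0.23 to -0.12 at 10 mg/kg and from -0.22 to -0.10 at 30 mg/kg. Gss stood at 0.990-fold and 0.992-fold, with 95% confidence intervals of 0.917 to 1.07 and 0.920 to 1.07. Gsr stood at 1.04-fold and 0.980-fold. Slc7a11, the cystine importer, did not pass the filter and was not tested.

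The soluble glutathione transferases were the largest group, 20 genes with 16 tested. None was called at either dose. With an unadjusted p under 0.05, the group had 1 higher (Gsta1) and 3 lower (Gsta4, Gstm7, Gsto1) at 10 mg/kg, and 1 higher (Gsta1) and 3 lower (Gsta4, Gstm7, Gstp3) at 30 mg/kg. Of all tested genes, 4.49% were higher and 8.79% lower by this measure at 10 mg/kg, and 5.27% and 10.8% at 30 mg/kg. The mean was lower than vehicle in 11 of 16 at each dose, beside 58.2% and 62% of all genes. After quantile normalization it was lower in 10 of 16 at each dose, and after centring on the array median in 11 of 16. The shares of all genes after these steps were not computed.

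Gsta1, an alpha-class transferase abundant in hepatocytes, was one of the pair of genes in the set whose treated and vehicle samples did not overlap. Its log2 values were 13.40, 13.32, 13.22, 13.28 and 13.31 with vehicle, 13.62, 13.53, 13.46, 13.49 and 13.50 at 10 mg/kg, and 13.60, 13.47, 13.45, 13.45 and 13.45 at 30 mg/kg. Every treated sample was above every vehicle sample, by a gap of 0.064 at 10 mg/kg and 0.053 at 30 mg/kg. The level was 1.16-fold vehicle at 10 mg/kg (95% CI 1.08 to 1.25, limma adjusted p = 0.0983) and 1.13-fold at 30 mg/kg (1.06 to 1.21, limma adjusted p = 0.147), so it was not called. Groups that do not overlap were found for 2 of 45 genes (4.44%) at each dose against vehicle, Gsta1 higher and Gpx4 lower, beside 2.44% and 3.21% of all tested genes. The rat has close copies of alpha-class genes, so the Gsta1 probe set may read more than 1 of them. Separately, 2 probe sets with several symbols, including a symbol that met the rule of the set, were left out. Gsta4, which detoxifies the lipid peroxidation product 4-hydroxynonenal, was at 0.851-fold and 0.866-fold (limma adjusted p = 0.324 and 0.309). Gsta3 and Gsta3l1 did not pass the filter.

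Among the mu-class transferases, 5 of 7 were tested. Gstm7 was at 0.701-fold the vehicle level at 10 mg/kg (95% CI 0.517 to 0.951) and 0.733-fold at 30 mg/kg (0.540 to 0.994), with limma adjusted p-values of 0.315 and 0.301. Its vehicle samples read 10.13, 11.17, 10.81, 10.56 and 11.17, those at 10 mg/kg 10.83, 10.27, 9.99, 10.10 and 10.10, and those at 30 mg/kg 10.33, 10.47, 9.84, 10.40 and 10.56. The groups overlapped, with vehicle sample 1 among the treated samples and 10 mg/kg sample 1 above vehicle samples 3 and 4. Gstm3 was at 0.882-fold and 0.862-fold with wide intervals (0.489 to 1.59 and 0.477 to 1.56), and without vehicle sample 2 its log2 difference turned from -0.18 to 0.17 at 10 mg/kg and from -0.21 to 0.13 at 30 mg/kg. Without vehicle sample 1, the lowest, these were -0.56 and -0.60. Gstm2 was at 0.832-fold and 0.890-fold, and its log2 difference at 10 mg/kg, -0.27, became -0.43 on leaving out vehicle sample 1, -0.17 on leaving out vehicle sample 2 and -0.18 on leaving out 10 mg/kg sample 3. The remaining tested mu-class genes were Gstm1, at 0.915-fold and 0.949-fold, and Gstm4, at 1.10-fold and 1.04-fold.

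The pi-class probe set Gstp3 was at 0.911-fold the vehicle level at 10 mg/kg and 0.708-fold at 30 mg/kg (95% CI 0.553 to 0.907, limma adjusted p = 0.202). Its vehicle samples read 13.06, 13.14, 12.97, 12.96 and 12.31, those at 10 mg/kg 13.16, 12.59, 12.94, 12.54 and 12.54, and those at 30 mg/kg 12.09, 12.29, 12.27, 12.63 and 12.66. The fifth vehicle sample lay among the 30 mg/kg samples, and the other vehicle samples were all above them. Without it the fold at 30 mg/kg was 0.640 and the limma adjusted p 0.0760. That was the lowest over the alternative settings, where the limma adjusted p reached 0.342 and the log2 difference ran from -0.64 to -0.42. Gstp1, the other pi-class gene, was at 0.905-fold and 0.915-fold. Its vehicle sample 1 read 8.11, the other vehicle samples between 8.64 and 8.88. Over the alternative settings, the log2 difference of Gstp1 ran from -0.28 to -0.09 at 10 mg/kg and from -0.27 to -0.07 at 30 mg/kg. Its limma adjusted p was never below 0.207 and 0.225. Pi-class genes share much sequence, so reads of one by the other's probes cannot be told apart here.

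In the remaining classes, Gsto1, an omega-class enzyme with reductase activity, was at 0.849-fold at 10 mg/kg (95% CI 0.730 to 0.987, limma adjusted p = 0.338) and 0.903-fold at 30 mg/kg. Gstt3, of the theta class, had the widest interval of the set, 0.703-fold (0.323 to 1.53) and 1.39-fold (0.640 to 3.03). Its vehicle samples ran from 9.11 to 11.61, its 10 mg/kg samples from 8.93 to 10.48 and its 30 mg/kg samples from 9.06 to 11.64. Its log2 difference at 10 mg/kg, -0.51, became -0.14 when vehicle sample 5 was left out, -0.27 when vehicle sample 4 was and -0.34 when 10 mg/kg sample 3 was. At 30 mg/kg it was 0.48, and it ran from 0.22 without 30 mg/kg sample 1 to 0.86 without 30 mg/kg sample 2, moving by over 1.5 times also without vehicle sample 1, 2, 3 or 5. Gstk1, the mitochondrial and peroxisomal kappa-class enzyme, was at 1.15-fold and 1.05-fold. Its log2 difference at 10 mg/kg, 0.21, came to 0.09 when vehicle sample 1 was left out, and to 0.08, 0.32 or 0.13 when 10 mg/kg sample 1, 3 or 4 was. Gstz1, which takes part in tyrosine breakdown, was at 1.05-fold and 0.984-fold. Gsta4, Gstm1, Gstm2, Gstm3, Gstm4, Gsto1, Gstp1, Gstk1 and Gstz1, and below Mgst1, Gpx3, Gpx7, Prdx2, Prdx4, Prdx6, Txnrd1, Txnrd2 and Txnrd3, are outside the rule for named genes and were added after their values were seen.

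The 3 membrane-bound transferases, which also reduce lipid peroxides, were all tested and 0 passed. Mgst1 was at 1.01-fold and 1.02-fold with 95% confidence intervals of 0.958 to 1.07 and 0.962 to 1.08. Mgst2 was at 1.11-fold and 1.09-fold, and Mgst3 at 0.914-fold and 0.973-fold.

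**Figure D2:**
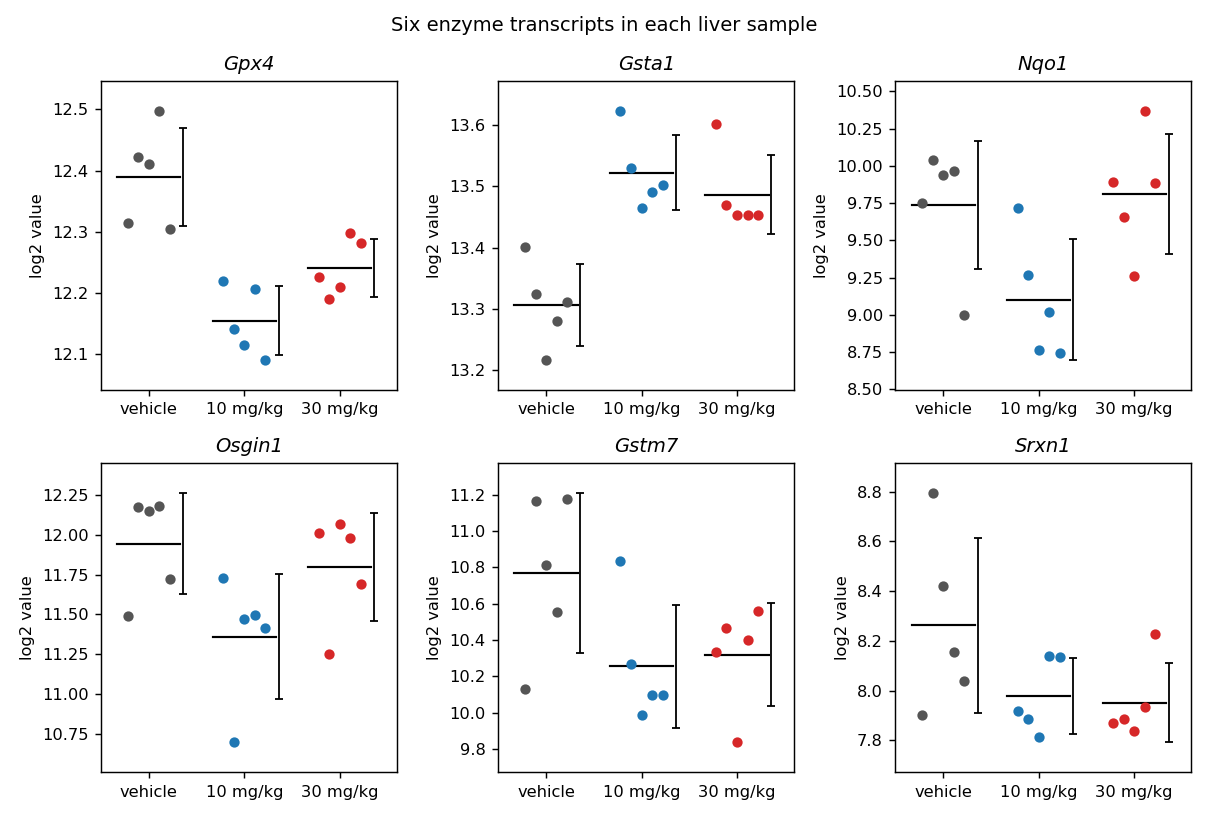
Log2 values of Gpx4, Gsta1, Nqo1, Osgin1, Gstm7 and Srxn1 in each sample of the vehicle, 10 mg/kg and 30 mg/kg groups, with 1 point per sample, the mean as a line and the SD as a bar (n = 5). The Gpx4 and Gsta1 points of both treated groups are separate from vehicle, while the other genes' groups overlap.

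Among the glutathione peroxidases, 5 of 7 were tested and 0 were called. Gpx4, the enzyme that reduces peroxides of phospholipids in membranes and guards against ferroptosis, had the lowest adjusted p of the set at 10 mg/kg. Its log2 values were 12.31, 12.42, 12.41, 12.50 and 12.30 with vehicle, 12.22, 12.14, 12.11, 12.21 and 12.09 at 10 mg/kg, and 12.23, 12.19, 12.21, 12.30 and 12.28 at 30 mg/kg. All treated samples were below all vehicle samples, by a gap of 0.084 at 10 mg/kg and only 0.0060 at 30 mg/kg. The level was 0.849-fold vehicle at 10 mg/kg (95% CI 0.792 to 0.911, limma adjusted p = 0.0740) and 0.902-fold at 30 mg/kg (0.841 to 0.967, limma adjusted p = 0.176). Over the alternative settings, the limma adjusted p of Gpx4 at 10 mg/kg ran from 0.0503, without vehicle sample 5, to 0.228. Without 10 mg/kg sample 5, no gene of the set had one below 0.177 at that dose. A second, dimmer probe set of Gpx4, with a mean of 6.65, gave log2 differences of -0.04 and 0.02, and the mean of both sets gave -0.14 and -0.07. The probe sets thus disagreed on the size, and at 30 mg/kg on the direction.

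Gpx1, the main cytosolic peroxidase of liver, was at 1.05-fold and 1.00-fold (95% CI 0.985 to 1.12 and 0.939 to 1.07). Gpx3, the secreted plasma form, was at 0.986-fold and 1.08-fold. Gpx7 and Gpx8, which act in the endoplasmic reticulum, were at 1.04-fold and 1.09-fold, and at 1.03-fold and 1.09-fold. Gpx8 at 30 mg/kg had an unadjusted p under 0.05 and a limma adjusted p of 0.261. Its values lay near the filter's cut-off of 6.10, which 10 of 15 samples exceeded. Its mean was 6.06 with vehicle, below that cut-off, 6.10 at 10 mg/kg and 6.19 at 30 mg/kg. Gpx2 and Gpx6 did not pass the filter.

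Most peroxiredoxins reduce hydrogen peroxide with electrons from thioredoxin, and sulfiredoxin, Srxn1, repairs some of them when they have been over-oxidised. All 6 genes were tested and 0 were called. Only Srxn1, lower at 30 mg/kg, had an unadjusted p under 0.05, where 10.8% of all tested genes were lower by this measure. Srxn1 was at 0.822-fold at 10 mg/kg (95% CI 0.668 to 1.01, limma adjusted p = 0.400) and 0.806-fold at 30 mg/kg (0.656 to 0.991, limma adjusted p = 0.293). Its vehicle samples read 7.90, 8.79, 8.42, 8.15 and 8.04, those at 10 mg/kg 7.92, 7.88, 7.81, 8.14 and 8.14, and those at 30 mg/kg 7.87, 7.89, 7.84, 7.94 and 8.23. Vehicle sample 2 was the highest, and without it the log2 differences were -0.15 (10 mg/kg) and -0.18 (30 mg/kg), in place of -0.28 and -0.31. A second probe set gave -0.12 and -0.09, and another, too dim for the filter, 0.03 and 0.04. Prdx2 to Prdx6 ran from 0.938-fold to 1.03-fold at 10 mg/kg and from 0.923-fold to 1.02-fold at 30 mg/kg. Prdx6, which also has phospholipase activity, was the lowest at 30 mg/kg (95% CI 0.844 to 1.01), and Prdx3, of the mitochondria, was at 1.03-fold and 0.998-fold.

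Thioredoxin carries electrons from NADPH, passed on by thioredoxin reductase. The cytosolic Txn1 was at 1.05-fold vehicle at both doses (95% CI 0.988 to 1.11 and 0.991 to 1.11), and the mitochondrial Txn2 at 0.987-fold and 1.00-fold. Txnrd1, a selenoprotein and a standard NRF2 target, was at 1.01-fold and 1.03-fold. Txnrd2 and Txnrd3 lay between 0.989-fold and 1.04-fold. All 5 intervals at 10 mg/kg and at 30 mg/kg lay within 1.5-fold, and 0 of the 5 passed.

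The superoxide dismutases turn superoxide into hydrogen peroxide. Sod1, cytosolic, was at 1.05-fold and 1.03-fold, and Sod2, mitochondrial, at 1.02-fold and 1.04-fold. Neither was called.

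Of the other 6 listed NRF2 targets, 4 were tested and 0 were called. Nqo1, a quinone reductase, read 9.75, 10.04, 9.94, 9.96 and 8.998 with vehicle, 9.72, 9.27, 8.77, 9.02 and 8.74 at 10 mg/kg, and 9.89, 9.66, 9.26, 10.37 and 9.89 at 30 mg/kg. All 10 mg/kg samples lay below 4 of the 5 vehicle samples, and vehicle sample 5 lay among them, while the 30 mg/kg samples overlapped the vehicle samples. The level was 0.644-fold at 10 mg/kg (95% CI 0.454 to 0.912, limma adjusted p = 0.282) and 1.05-fold at 30 mg/kg (0.743 to 1.49, limma adjusted p = 0.905). Between the doses, 30 mg/kg was 1.64-fold 10 mg/kg (1.15 to 2.32, limma adjusted p = 0.851). With vehicle sample 5 left out, the folds were 0.566 at 10 mg/kg (limma adjusted p = 0.107) and 0.926 at 30 mg/kg. Over the alternative settings, the log2 difference at 10 mg/kg ran from -0.82 to -0.55, and its limma adjusted p from 0.107 to 0.478.

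Osgin1 is an oxidative stress-induced growth inhibitor. Its log2 values were 11.49, 12.17, 12.15, 12.18 and 11.72 with vehicle, 11.73, 10.70, 11.47, 11.50 and 11.41 at 10 mg/kg, and 12.01, 11.25, 12.07, 11.98 and 11.69 at 30 mg/kg. The 10 mg/kg samples were mostly low, with overlap in both directions. It was at 0.668-fold at 10 mg/kg (95% CI 0.496 to 0.899, limma adjusted p = 0.259) and 0.905-fold at 30 mg/kg. The 30 mg/kg level was 1.35-fold that at 10 mg/kg, a log2 difference of 0.44, or of 0.27 with 10 mg/kg sample 2 left out. Hmox1, heme oxygenase, was at 0.860-fold (limma adjusted p = 0.365) and 0.956-fold. Akr7a3, an aflatoxin aldehyde reductase, was at 0.997-fold and 1.16-fold, and without vehicle sample 1, its lowest at 8.50, the log2 difference at 30 mg/kg turned from 0.22 to -0.11. Akr1b8 and Abcc4 did not pass the filter.

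The doses were compared directly as well. Between 30 and 10 mg/kg, limma called 0 of 45 genes (0% of all genes). An unadjusted p under 0.05 was found for 3 of 45 (6.67%), beside 5.82% of all tested genes. Nqo1 and Osgin1 were the 2 higher at 30 mg/kg (2.57% of all genes), and Gstp3 the 1 lower (3.25%). A difference of at least 1.25-fold was seen in 4 of 45, beside 2.19% of all genes, and the mean was lower at 30 mg/kg in 17 of 45 (37.8%), beside 54.4%. The 2 groups did not separate for any of the 45, where 0.943% of all tested genes did. The median log2 difference between the doses was 0.023 for the 45 genes and -0.0079 for all genes.

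The members differed in how much they varied between samples. The SD within groups, pooled over the 3 groups, was 0.152 at the median of the 45 genes and 0.119 at the median of all tested genes. It was largest in Gstt3 (0.924), Gstm3 (0.702), Akr7a3 (0.568) and Nqo1 (0.412), and the highest of the 15 samples was 6.53 times the lowest in Gstt3, 7.55 times in Gstm3, 4.08 times in Akr7a3 and 3.09 times in Nqo1. The spread was not evenly shared among samples. Vehicle sample 1 was the lowest of its group in 21 of 45 genes (46.7%; 24.5% of all tested genes), 10 mg/kg sample 1 the highest in 19 (42.2%; 25.3%) and 10 mg/kg sample 2 the lowest in 18 (40.0%; 23.7%).

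**Figure D3:**
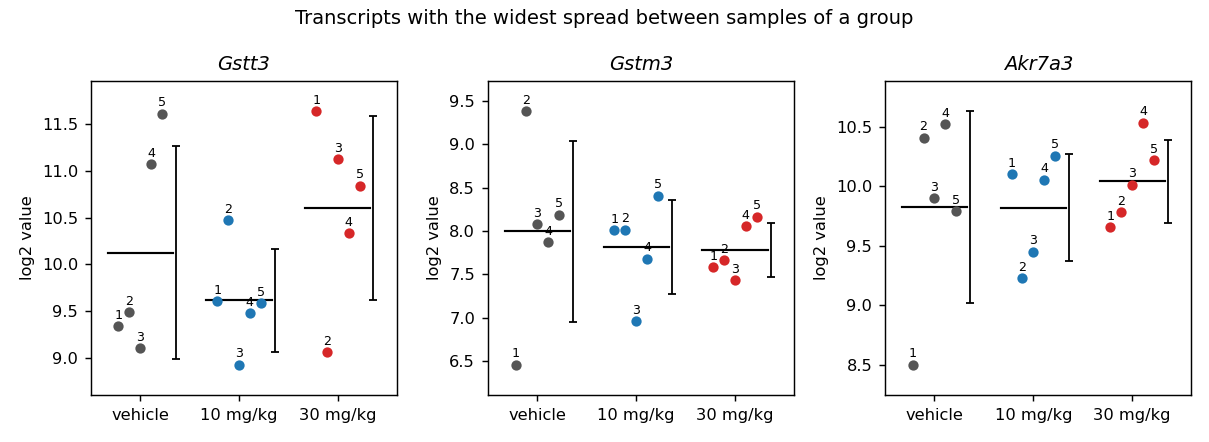
Log2 values of Gstt3, Gstm3 and Akr7a3 in each sample by group, with the sample's number beside its point, the mean as a line and the SD as a bar (n = 5). Gstm3 and Akr7a3 have vehicle sample 1 lowest, at 6.46 and 8.50, and Gstt3 has vehicle samples 4 and 5 apart from the other vehicle samples, at 11.07 and 11.61.

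Other genes of the same chemistry were followed as a list of 58, of which 50 were tested. None was called at either dose. The unadjusted p was under 0.05 for 8 higher and 7 lower genes at 10 mg/kg, and for 5 higher and 10 lower at 30 mg/kg. Over all tested genes the shares were 4.49% and 8.79%, and 5.27% and 10.8%. Nfe2l2, the gene of NRF2 itself, was at 0.841-fold and 0.806-fold (limma adjusted p = 0.405 and 0.246). Keap1 was at 1.03-fold and 0.974-fold, and Mafk, a small MAF partner of NRF2, at 0.774-fold and 0.788-fold (limma adjusted p = 0.186 and 0.174). The Mafk groups overlapped at 10 mg/kg and did not at 30 mg/kg, by a gap of 0.012.

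Glutathione reductase and thioredoxin reductase both spend NADPH, and 6 of 7 listed genes of its supply were tested. Me1, malic enzyme, read 8.56, 9.51, 9.36, 9.24 and 10.05 with vehicle, 10.51, 10.87, 10.50, 10.74 and 11.04 at 10 mg/kg, and 10.30, 10.91, 11.42, 10.43 and 9.26 at 30 mg/kg. All 10 mg/kg samples were above all vehicle samples, while 30 mg/kg sample 5 lay among the vehicle samples. It was at 2.62-fold and 2.17-fold (limma adjusted p = 0.119 and 0.163). Pgd, phosphogluconate dehydrogenase, was at 1.58-fold and 1.47-fold (limma adjusted p = 0.159 and 0.184), also without overlap at 10 mg/kg. Both enzymes also serve fatty acid synthesis. Glrx, glutaredoxin, which reduces glutathione-bound proteins, was at 0.934-fold and 0.803-fold (limma adjusted p at 30 mg/kg = 0.131, groups not overlapping). Akr1a1, an aldehyde reductase, was at 0.906-fold and 0.895-fold (limma adjusted p = 0.315 and 0.215), below all vehicle samples at both doses. Of all tested genes, 2.44% at 10 mg/kg and 3.21% at 30 mg/kg had groups that did not overlap with vehicle.

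**Figure D4:**
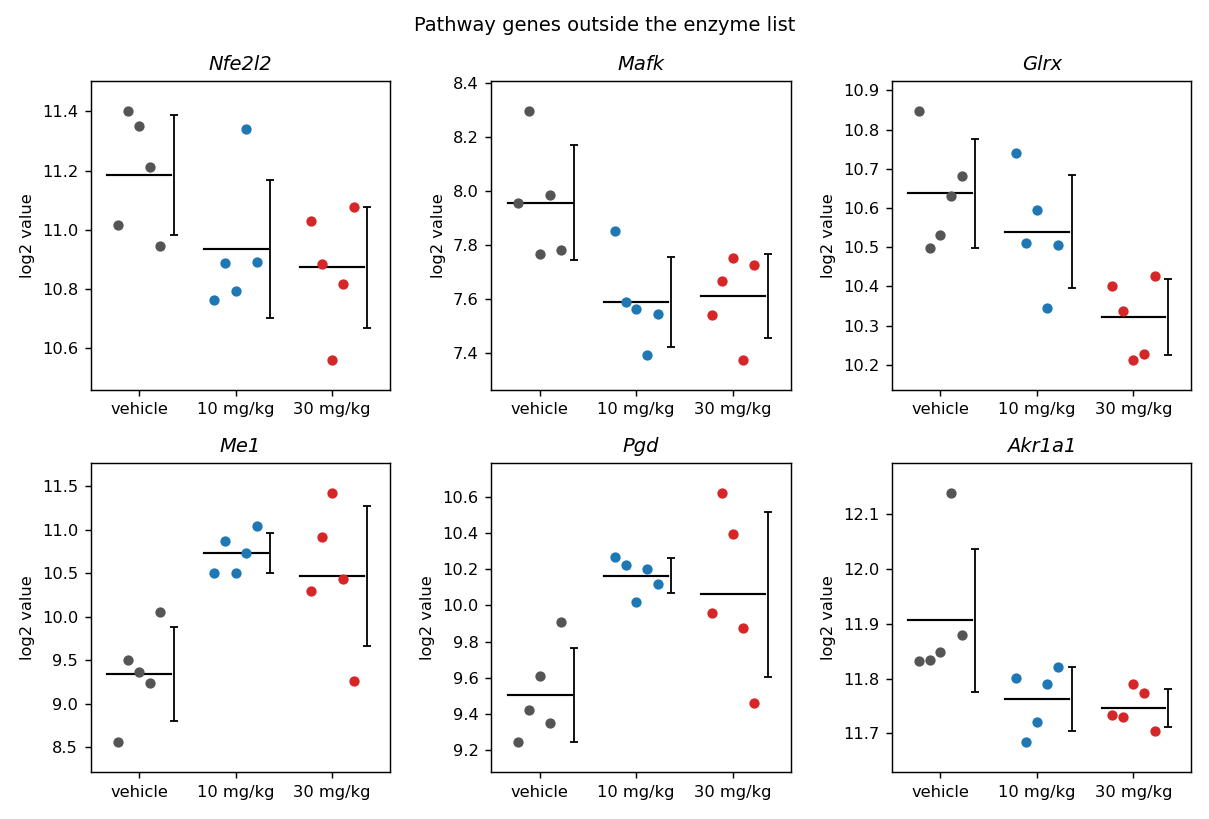
Log2 values of Nfe2l2, Mafk, Glrx, Me1, Pgd and Akr1a1 in each sample by group, with 1 point per sample, the mean as a line and the SD as a bar (n = 5). Me1 and Pgd are higher in all 10 mg/kg samples than in any vehicle sample, while Nfe2l2 overlaps between groups.

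Markers of other liver cells were counted in the same fit. Of 9 tested of 11 Kupffer cell and macrophage genes, 9 had a lower mean at both doses (58.2% and 62% of all genes), and the median of their log2 differences was -0.39 for the lower dose and -0.34 for the higher. Their mean level ran from 9.03 to 9.58 with vehicle, 8.55 to 9.23 at 10 mg/kg and 8.44 to 9.55 at 30 mg/kg. None was called by limma, 6 at 10 mg/kg and 2 at 30 mg/kg were lower with an unadjusted p under 0.05 (8.79% and 10.8% of all genes), and Marco and Vsig4 did not pass the filter. Stellate (8 of 8 lower at 10 mg/kg, 6 of 8 at 30 mg/kg) and endothelial genes (6 of 6 at both) were lower in the mean too. The 3 tested red blood cell genes had medians of -0.41 and -0.22, with Slc4a1 higher in the mean at 30 mg/kg, and Epcam, the 1 tested of 5 cholangiocyte markers, was at 1.03-fold and 1.05-fold. For general hepatocyte genes the median was 0.01 at both doses. Of the 5 tested of 8 pericentral genes, 3 had a lower mean at 10 mg/kg and 4 at 30 mg/kg, with medians of -0.26 and -0.24. Among them Glul was at 0.652-fold, without overlap, and 0.760-fold, and Cyp2e1 at 0.826-fold and 0.846-fold. Cyp1a2 was at 0.838-fold and 0.910-fold, Axin2 at 1.01-fold and 0.781-fold, and Oat at 1.06-fold and 1.09-fold. Of 8 periportal genes, 7 and 6 had a higher mean, with medians of 0.18 and 0.11. By limma none of these genes was called. An unadjusted p under 0.05 was found for 2 pericentral genes at 10 mg/kg and 1 at 30 mg/kg, all lower, and for 2 periportal genes at each dose, all higher. By this measure 3 stellate genes and 1 red blood cell gene were lower at 10 mg/kg, and 2 endothelial genes at each dose. Of the general hepatocyte genes, 1 was higher at each dose. Over all tested genes, 4.49% were higher and 8.79% lower at 10 mg/kg, and 5.27% and 10.8% at 30 mg/kg. The part of these cells in the values of Gpx4, Hmox1 and the other genes above was not tested.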

How the data were processed

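Liver RNA of 15 samples in 3 groups of 5 was measured on arrays. The deposited table holds log2 values per probe set that the authors had summarised and normalised. Per the submitters' processing notes the tools included RMA, GCRMA 2.12.1 and limma 2.14.7, and the sources used here do not give which of RMA or GCRMA made the table. Array medians lay between 6.08 and 6.12.

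Probe sets with 1 gene symbol (20826 of 31099) were kept when the fifth highest of 15 values exceeded the median of all values, 6.10. The brightest stood for each gene. A limma (3.58.1, R 4.3.3) model with 1 mean per group used all 15 arrays. Its p-values had Benjamini-Hochberg adjustment over 9540 genes, and calls were made at an adjusted p under 0.05. The number of arrays limits the precision. The code was tested on simulated data. Members and lists were chosen with earlier results of these data known.

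Named were genes called or not overlapping between groups, those with the largest difference in each role, and the 16 listed by name. Alternatives changed the filter, probe set choice, normalization, eBayes options, samples in the fit, replicate block and single samples.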

Additional observations from a re-analysis of the deposited data

Results flagged for a closer look

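In 6 of 135 sets of 5 values (a gene in a group), 1 sample stood apart from the others by Dixon's ratio above 0.71, where chance flags about 5%. Gss at 10 mg/kg had sample 2 lowest at 8.71, the others lying between 8.87 and 8.91. Gsta1 at 30 mg/kg had sample 1 highest at 13.60, the others between 13.45 and 13.47; without it the level was 1.11-fold vehicle, with a limma adjusted p of 0.204. Gstp3 had vehicle sample 5 lowest at 12.31, the others between 12.96 and 13.14. Mgst1 had vehicle sample 1 lowest at 14.49, the others between 14.59 and 14.63. Nqo1 had vehicle sample 5 lowest at 8.998, the others between 9.75 and 10.04. Srxn1 at 30 mg/kg had sample 5 highest at 8.23, the others between 7.84 and 7.94; without it the level was 0.769-fold vehicle, with a limma adjusted p of 0.243.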

How the results depend on the processing

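No gene of the set was called in any contrast under the 24 alternatives, the lowest limma adjusted p being 0.0503 at 10 mg/kg, 0.0760 at 30 mg/kg and 0.628 between the doses. Counts over all genes did move: at 10 mg/kg from 10 called to 3 without the filter, and with single samples left out from 0 to 26 (the count was 0 on leaving out sample 2 or 4 of vehicle, sample 2, 3, 4 or 5 of the lower dose, or sample 1 of the higher dose; it was 1 on leaving out sample 1 of vehicle or sample 4 of the higher dose, 21 for sample 5 of vehicle and 26 for sample 2 of the higher dose). At 30 mg/kg they ran from 0 to 5 with single samples left out (1 without vehicle sample 1, 5 without vehicle sample 5) and came to 1 with every probe set as its own feature; the causes were not tested. The replicate block gave 0 genes called at 10 mg/kg, and 8, 5 and 2 of the set at an unadjusted p under 0.05 in the 3 contrasts, in place of 8, 7 and 3. The samples share only a number: the deviations of same-numbered samples correlated from -0.0706 to 0.195 (median 0.0489), and 3 of 15 samples correlated best with their own number. Under quantile normalization 4 of the set were higher and 6 lower at 10 mg/kg by that measure (1 and 7 as deposited), and 3 and 2 at 30 mg/kg (2 and 5 as deposited). Of all 9540 tested genes, 1226 at 10 mg/kg and 1284 at 30 mg/kg then had an unadjusted p under 0.05, in place of 1267 and 1535. Centring on the array median gave 1 higher and 7 lower of the set at 10 mg/kg, and 2 and 5 at 30 mg/kg. Over all tested genes it gave 1230 and 1663.

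Among the values of named genes under the alternatives, 20, 31 and 20 changed sign (10 mg/kg, 30 mg/kg, between the doses), and the largest log2 difference that did so was 0.22, that of Akr7a3 at 30 mg/kg. Only Gpx4 moved by over 1 SD, to -0.14 and -0.07 with the mean of its probe sets.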
